A study of Mus musculus with 2 samples.

Results

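Splice junctions that the reference annotation does not hold were read repeatedly in mouse adrenal gland. The transcript models described are those that the authors classed as NNC (not in catalogue), that had 2 or more exons, and that had 5 or more reads in at least 1 of 2 long-read libraries. Models of the libraries were joined when they shared chromosome, strand and every intron (the intron chain). This gave 1026 chains, out of 40534 chains classed NNC at any read number and 148502 multi-exon chains of any class. By the rule's threshold, 553 models passed in replicate 1 and 707 in replicate 2. The chains were thus chosen by class and read number, and both are given as description. Annotated means present in GENCODE M21, on the mm10 assembly of the mouse genome. Every one of the 1026 chains held at least 1 splice site absent from that annotation on its strand, which checks the class label: 818 held 1 such site, 184 held 2, and 24 held 3 or more. Among chains that the authors classed NIC, the class for new combinations of annotated sites, 220 of 2011 with the same read minimum (10.9%) also held such a site and are not included. The 2 classes were also not applied alike in both libraries, since 156 of the 1026 chains were classed NIC in the other library and 20 were classed as incomplete matches.

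The tissue was the adrenal gland of male mice of strain B6CASTF1/J, 25 days old. These are first-generation offspring of a cross of C57BL/6 with the wild-derived strain CAST/EiJ, so each animal carries 1 genome of either strain, while mm10 represents C57BL/6. The 2 libraries belong to 1 group, numbered replicates 1 and 2, and the labels do not settle whether they come from separate animals. Differences between them therefore compare 2 libraries, not conditions, and may be technical.

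Introns are removed between a donor site at the 5′ end of the intron, which nearly always begins GT or less often GC, and an acceptor site at its 3′ end, which nearly always ends AG. Where a second GT or AG lies close by, the splicing machinery can use either, and a pair of acceptors 3 bases apart (the NAGNAG arrangement) adds or removes 1 codon without a change of reading frame. Long reads cover whole transcripts, so each new site is seen together with all other junctions of its molecule. The adrenal gland makes steroid hormones in its cortex and catecholamines in the chromaffin cells of its medulla.

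The deposited tables held 793999 reads in replicate 1 and 1290342 reads in replicate 2, and annotated genes took 752432 and 1210671 of them. The 5 cortex markers (Cyp11a1, Star, Cyp11b1, Cyp21a1 and Hsd3b1) summed to 60880 and 24697 CPM (counts per 1000000 gene reads of the library), and 5 chromaffin markers (Th, Chga, Chgb, Dbh and Pnmt) to 9412 and 7114 CPM, all detected in both libraries. The libraries stood apart in genes of other tissues. Of 6 hepatocyte markers (Alb, Ttr, Apoa1, Ahsg, Fgb and Serpina3k), 4 had no read in replicate 1, and all 6 together reached 5.32 CPM there, against 43821 CPM in replicate 2. A set of 6 skeletal muscle markers (Acta1, Ckm, Mylpf, Tnnt3, Myh4 and Actn3) reached 2363 CPM in replicate 1, against 1.65 CPM in replicate 2, where 4 were at 0. In such bulk samples, fewer cells of a type and less RNA per cell cannot be told apart. A gene at 0 reads in a library could hold up to 3 reads by counting error alone, which is 3.99 CPM for replicate 1 and 2.48 CPM for replicate 2.

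The bases at new sites could be read where the site lies inside an exon of some annotated transcript. Several such sites are shown as examples of the arrangements described after them. Each line runs 5′ to 3′ over 22 bases of mm10, taken from the GENCODE M21 transcript sequences, with the outermost 2 bases of the new intron in capitals. In Lmf1, Mrpl33, Capn2 and Uchl1, the annotated donor lies 4 to 17 bases before the new one. In Capn2 the annotated donor lies before the bases shown. In Cdkn1c, Cyp21a1 and Chga, the new acceptor lies downstream of the annotated one. In Penk and Rwdd4a it lies upstream. In Mafk and Srd5a2, both ends of the new intron lie inside 1 annotated exon.
Lmf1 donor, 4 bases downstream of the annotated donor (chr17:25585847-25585868, plus strand): gatctggtaaGTagagcctctc
Mrpl33 donor, 8 bases downstream (chr5:31614021-31614042, plus strand): ttgtaagtcgGTctgaggcggc
Capn2 donor, 17 bases downstream (chr1:182484174-182484195, minus strand): cagaggatggGTggggctccgc
Uchl1 donor, 9 bases downstream (chr5:66676322-66676343, plus strand): ggtaagcataGCtgctgggtcg
Cdkn1c acceptor, 3 bases downstream of the annotated acceptor (chr7:143460666-143460687, minus strand): cctccgcagcAGaacagcgatg
Cyp21a1 acceptor, 51 bases downstream (chr17:34802811-34802832, minus strand): tacatgctccAGggagtggaga
Chga acceptor, 23 bases downstream (chr12:102561356-102561377, plus strand): cgggcccagcAGccgctgaagc
Penk acceptor, 1 base upstream (chr4:4138137-4138158, minus strand): tctctcctacAGcccatggcgc
Rwdd4a acceptor, 3 bases upstream (chr8:47550680-47550701, plus strand): ttttttttttATcagttaagca
Mafk donor (chr5:139801981-139802002, plus strand): gatgagtacaGTggtaggcaga
Mafk acceptor (chr5:139802085-139802106, plus strand): ggatgagtacAGtggtaggcag
Srd5a2 donor (chr17:74017198-74017219, minus strand): tcatatgcagGTtctagatttt
Srd5a2 acceptor (chr17:74017141-74017162, minus strand): gtgtatgttgAGggtcatatag

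The chains held 9901 reads in replicate 1 and 13929 reads in replicate 2, which was 1.31% and 1.15% of the reads in annotated genes. They had 5 to 1078 reads over both libraries, with a median of 10. Of the 1026 chains, 217 had at least 20 reads and 35 had at least 100. They lay in 776 genes, of which 627 held 1 chain each, and 997 chains lay in protein-coding genes. The chains had 2 to 67 exons, with a median of 10, so a typical one spanned many annotated junctions and 1 new one. A further 52 chains used annotated sites of more than 1 gene, and 7 lay outside annotated genes. Just inside the threshold, 264 chains had 5 reads in the library where they were highest. Just outside it, 454 NNC chains had 4 reads.

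A shifted splice site was the usual change. A shifted donor was the kind of 386 chains, a shifted acceptor of 327, and both of 52. Shifted means here that the new site bounds neither a new exon nor a new intron inside 1 annotated exon. A new first exon was the kind of 113 chains, a new internal exon of 66, a new intron inside 1 annotated exon of 55, a new last exon of 21, and an exon with both ends shifted of 6. Chains with a new intron inside an exon were read in both libraries in 85.5% of cases, chains with a shifted donor or a shifted acceptor in 74.1% and 74.0%, and chains with a new internal exon in 56.1%. Their median reads per chain were 12, 11, 11 and 8 in that order. Chains with a new internal exon had 292 reads in replicate 1 and 715 in replicate 2. The part of read number and library in these shares was not tested.

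**Figure D1:**
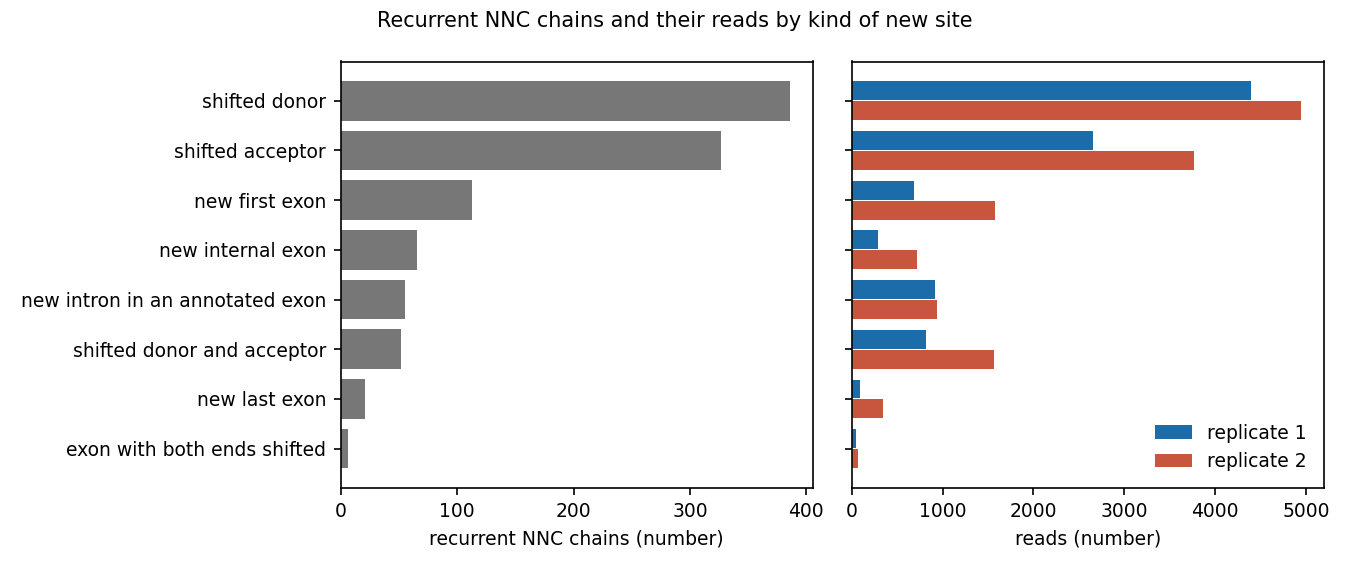
Recurrent NNC chains by kind of new site. The left bars count chains and the right bars count their reads in replicate 1 and in replicate 2; the 386 chains with a shifted donor and the 327 with a shifted acceptor hold most of the chains and of the reads.

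The chains held 1232 distinct new sites, 685 donors and 547 acceptors. New donors lay mostly in annotated introns (369, or 53.9%), with 99 (14.5%) in coding exons. New acceptors lay most often in coding exons (223, or 40.8%), with 142 (26.0%) in introns. UTR exons held 54 new donors and 54 new acceptors on the 5′ side, and 49 new donors and 55 new acceptors on the 3′ side. Outside the genes of their strand lay 70 donors and 47 acceptors. Of the 445 distinct shifted donors, 297 (66.7%) lengthened the exon, while of the 390 distinct shifted acceptors 264 shortened it. Both kinds of site thus lay more often downstream of the annotated site than upstream of it.

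For the 1193 new sites whose gene had an annotated site of the same kind, the median distance to the nearest was 54 bp, and 392 (32.9%) lay within 10 bp. Among shifted donors, 187 of 445 (42.0%) lay within 10 bp, 143 at 11 to 100 bp, 92 farther but within 1000 bp and 23 beyond that. Among shifted acceptors, 203 of 390 (52.1%) lay within 10 bp, 115 at 11 to 100 bp, 45 farther but within 1000 bp and 27 beyond that. The median distance was 17 bp for shifted donors and 7.5 bp for shifted acceptors.

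The distances near 0 fell on a few values, and the values differed between donors and acceptors. Of the shifted donors, 88 (19.8%) lay exactly 4 bases downstream of the annotated donor. The next most frequent were 2 bases downstream with 16 sites, 3 bases upstream with 14, and 4 bases upstream and 5 bases downstream with 9 each. Of the shifted acceptors, 80 (20.5%) lay exactly 3 bases downstream of the annotated acceptor. A further 30 lay 2 bases downstream, 30 lay 4 bases downstream, 22 lay 3 bases upstream and 11 lay 6 bases downstream.

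**Figure D2:**
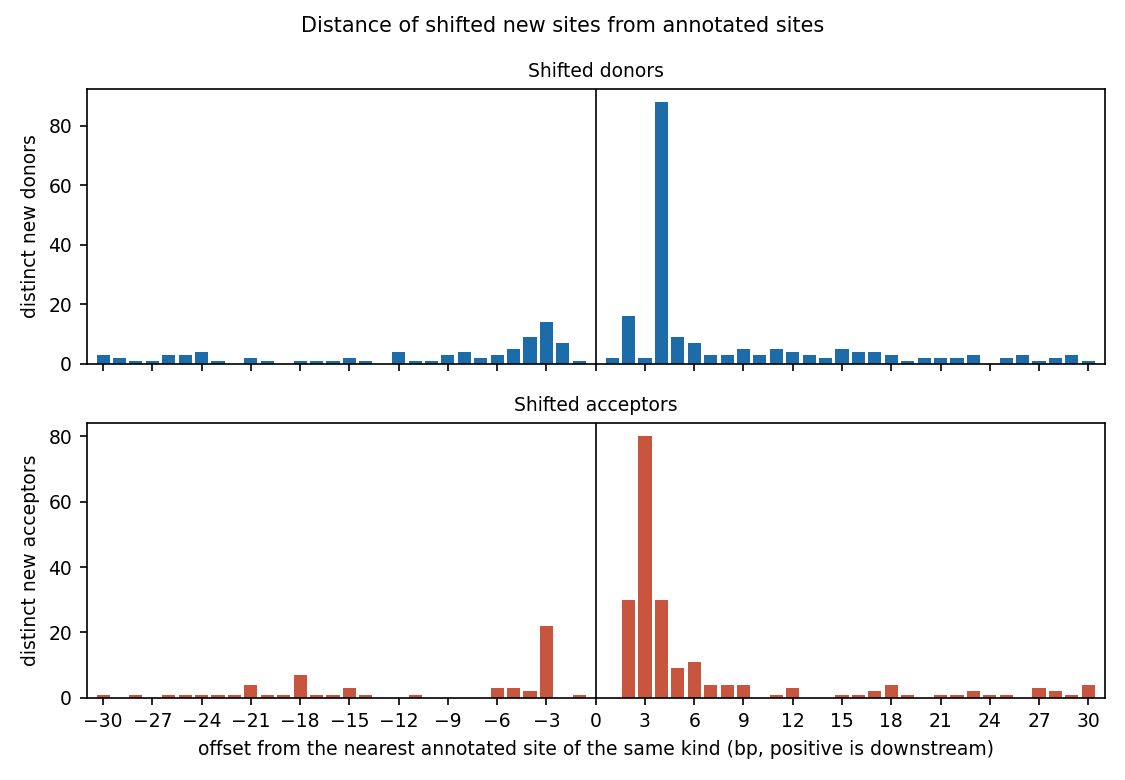
Distinct shifted donors (top) and shifted acceptors (bottom) of recurrent NNC chains by their offset in bp from the nearest annotated site of the same kind, within 30 bp; positive is downstream. Donors peak at 4 bases downstream with 88 sites, and acceptors at 3 bases downstream with 80.

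The letters that could be read at these positions were mostly those that splice sites carry. All 80 acceptors 3 bases downstream were readable and all 80 ended in AG, as did the 30 at 2 bases, the 30 at 4 bases and the 11 at 6 bases. Over 244765 annotated acceptors, AG ended 3 bases downstream in 5.56%. The Cdkn1c line shows this arrangement, with the annotated intron ending in cag and the new one in cagcag. Of the 88 donors 4 bases downstream, 11 were readable and all 11 began GT. Over 40476 annotated donors that could be read there, 35.2% had GT 4 bases downstream, as the Lmf1 line does. All 14 donors at 3 bases upstream and all 7 at 2 bases upstream began GT, where 2.20% and 1.22% of annotated donors had it. At 4 bases upstream, 6 of 9 did. Of the 16 donors 2 bases downstream, 3 were readable and 2 of them began GT. Of the 9 donors 5 bases downstream, 5 were readable and 3 of them began GT. Matches were searched on the transcript's strand, and AG or GT of neighbouring positions can overlap. A match describes the letters, and is no proof that the site is used.

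Over all readable new sites, 228 of 254 donors (89.8%) began GT and 26 began GC. Of 363 readable acceptors, 354 (97.5%) ended AG and 9 ended AT. Of 200 new introns readable at both ends, 181 ran from GT to AG, 13 from GC to AG and 6 from GT to AT, so that 97.0% began GT or GC and ended AG. Annotated donors that lie inside an exon of another transcript began GC in 2.72%. The share of donors that began GC was 10.2% in the recurrent chains, 8.13% in NNC chains of 2 to 4 reads and 10.7% in those of 1 read. AT ended 2.48% of acceptors in the recurrent chains, 0.861% in NNC chains of 2 to 4 reads and 3.01% in those of 1 read, against 0.152% of such annotated acceptors. Neither share thus ran in 1 direction with read number. The share of introns from GT or GC to AG was 98.7% in NNC chains of 2 to 4 reads and 97.3% in those of 1 read, so the recurrent chains did not stand apart in this measure.

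Read number went with other features of the sites. The share of shifted acceptors at exactly 3 bases downstream was 20.5% in the recurrent chains, 14.1% in NNC chains of 2 to 4 reads and 7.73% in NNC chains of 1 read. The share of shifted donors at 4 bases downstream ran the other way, at 19.8%, 22.1% and 24.3%. Distances of 1 to 100 bp that are multiples of 3 made up 42.1% of sites in the recurrent chains (276 of 655), 35.0% in chains of 2 to 4 reads and 30.6% in chains of 1 read. Chains with a new internal exon made up 6.43%, 8.98% and 12.5%. The share of sites within 10 bp was alike in the 3, at 32.9%, 31.8% and 30.2%.

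Whether a shift taken alone would keep the reading frame differed between acceptors and donors. Among shifts of 1 to 100 bp next to coding sequence, 157 of 258 acceptors (60.9%, exact binomial 95% interval 54.6 to 66.8) but 68 of 244 donors (27.9%, 22.3 to 33.9) moved by a multiple of 3. Without those exactly 3 bases downstream, 87 of 188 coding acceptors (46.3%, 39.0 to 53.7) were multiples of 3. Without donors exactly 4 bases downstream, 68 of 164 (41.5%, 33.8 to 49.4) were. Next to sequence that does not code, the counts were 28 of 60 acceptors and 20 of 86 donors. These intervals cover counting error over sites only, and sites of the same gene are not independent. Each site was counted alone. Where a chain shifts both a donor and an acceptor, the frame can be kept although neither distance is a multiple of 3.

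Donors 4 bases downstream were in 96 chains of 78 genes, with 1053 reads in replicate 1 and 1701 in replicate 2. Where each library gave the gene at least 20 reads, they usually took a small part of the gene's reads, with a median share of 0.876% and 0.786% over 79 chains. In 5 of the 79 they took at least 50% in both libraries. Acceptors 3 bases downstream were in 85 chains of 80 genes with 723 and 978 reads, and had a median share of 4.53% and 4.81% over 74 chains, with none at 50% in both. Acceptors 3 bases upstream were in 23 chains with 436 and 465 reads, and 2 of 20 took 50% or more in both. The minimum of 5 reads itself requires a larger share in genes with fewer reads. Reads per gene were not compared between these groups, so their shares do not show which shift is used more.

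Pitpna, which encodes a phosphatidylinositol transfer protein, shows a 4-base donor shift that leads its gene. Its chain of 11 exons (chr11:75588097-75626730, plus strand) used a donor at position 75603485 in intron 4, inside an annotated coding exon, where both the new and the annotated site begin GT. The chain had 170 of 184 gene reads in replicate 1 and 152 of 171 in replicate 2, or 92.4% and 88.9%. Lmf1, a maturation factor for lipases, had 38 of 46 and 85 of 102 reads, or 82.6% and 83.3%, on its chain with the donor shown above. Suds3, a subunit of the Sin3 corepressor complex, had 73 of 127 and 165 of 271 reads on a chain whose intron 4 began 4 bases downstream of the annotated donor and ended 16 bases upstream of the annotated acceptor. Col6a1, a chain of collagen VI, had 201 of 331 and 170 of 283 reads on a chain with 2 separate changes, an acceptor 37 bases upstream and a donor 4 bases downstream. In these 4 genes the share differed between libraries by 0.654 to 3.50 percentage points.

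In 7 introns both ends lay 4 bases downstream, so that the intron kept its length and slid along the gene. In 5 of the 7 the exon bases passed over at the acceptor were gtag, in Ugdh they were gcag and in Cyp11b1 ctag. Where the annotated intron also begins with the same bases, the annotated and the slid intron leave the same spliced sequence. Whether it does was not tested. Ptcd3, a mitochondrial protein with pentatricopeptide repeats, had such a chain at 71 of 86 reads in replicate 1 and 62 of 83 in replicate 2. Got2, the mitochondrial aspartate aminotransferase, had 14 of 40 and 109 of 360. Mttp, which loads triglyceride onto lipoproteins in the liver and gut, had 0 of 20 and 162 of 189. The Mttp chain was thus the most read chain of its gene in replicate 2 and was not read in replicate 1. The other 4, in Akr1cl, Pak6, Ugdh and Cyp11b1, had 3 to 7 reads in replicate 1 and 0 to 5 in replicate 2.

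Cdkn1c, an inhibitor of cyclin-dependent kinases that is expressed from the maternal allele, had the most reads among the acceptors 3 bases downstream. Its chain had 103 of 911 gene reads in replicate 1 and 96 of 917 in replicate 2, or 11.3% and 10.5%. Api5, an inhibitor of apoptosis, had 84 of 194 and 91 of 208 reads (43.3% and 43.8%) on a chain with an acceptor 5 bases upstream. Dctn2, a subunit of dynactin, had 84 of 182 and 89 of 267 reads (46.2% and 33.3%) on a chain with a donor 10 bases downstream. Mrpl33, a protein of the large mitochondrial ribosomal subunit, had 89 of 113 and 115 of 150 reads (78.8% and 76.7%) with its donor 8 bases downstream. The Mrpl33 chain was the most read form of its gene in both libraries, and the Cdkn1c and Api5 chains were in neither.

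Penk, the precursor of the enkephalin peptides of chromaffin cells, differed from its annotation by 1 base. The chain with the acceptor 1 base upstream, in a 5′ UTR exon, had 11 of 13 gene reads in replicate 1 and 15 of 16 in replicate 2. At the annotated position the intron would end in GC, and at the new one it ends in AG, as the Penk line shows. Rwdd4a had 24 of 28 and 25 of 32 reads on a chain whose last intron ended 3 bases upstream in AT, and the annotated intron goes on over the next 3 bases, cag. The Rwdd4a intron ends at position 47550691 and the chain at 47550695. The last exon is thus only a few bases long, and how well so few bases place the acceptor was not tested. AT acceptors were found at 9 new sites in all, among them H2-Q10, a class I histocompatibility gene expressed in liver, with 0 of 5 and 52 of 1478 reads. Cyp2c40, a cytochrome P450, had 0 of 0 and 172 of 855 reads at another. That acceptor is not a shift of a few bases, as it ends an intron of 78237 bp at position 39688888. The position lies within the span of a Cyp2c68 chain (chr19:39688319-39741054, minus strand). Whether the junction joins both genes was not tested. The acceptor in Hsd17b4, a peroxisomal hydroxysteroid dehydrogenase, had 9 of 277 and 15 of 543 reads.

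In genes with 20 or more reads in each library, 765 chains lay in 568 of 5749 genes (9.88%). Their median share of gene reads was 2.48% in replicate 1 and 2.35% in replicate 2. A total of 441 chains took under 5% in both libraries, and 40 were the most read form of the gene in both. In 22 chains the share was 50% or more in both libraries. These 22 included 13 with a shifted donor, 4 with a shifted acceptor, 4 with both and 1 with a new first exon. The median absolute difference of the share between libraries was 1.55 percentage points over the 765 chains. The share was tested by a two-sided Fisher's exact test of the chain's reads against the other reads of its gene, on chains with at least 10 reads over both libraries, adjusted by Benjamini-Hochberg over all such multi-exon chains. Of 13571 chains tested, 1259 (9.28%) were called at an adjusted p under 0.05, and of the recurrent NNC chains 28 of 495 (5.66%).

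In the chains with the highest shares, most reads of the gene lay on the new junction. Capn2, the large subunit of calpain-2, had 135 of 147 reads in replicate 1 and 167 of 200 in replicate 2 (91.8% and 83.5%) on a chain of 20 exons with a donor 17 bases downstream, at chr1:182467260-182517524. Cct6a, a subunit of the cytosolic chaperonin, had 243 of 275 and 308 of 368 (88.4% and 83.7%) on a chain whose intron 10 began 61 bases downstream of the annotated donor and ended 33 bases upstream of the annotated acceptor. GENCODE M21 lists Cct6a as a processed transcript with no coding sequence. Chmp1a, an ESCRT-III protein, had 59 of 66 and 235 of 284 (89.4% and 82.7%) with a donor 25 bases downstream in intron 1. Hacd1, a dehydratase of fatty acid elongation, had 19 of 25 and 26 of 30 with a donor 27 bases downstream. Uchl1, the ubiquitin hydrolase of neurons and neuroendocrine cells, had 26 of 34 and 32 of 38 (76.5% and 84.2%) with the GC donor shown above. Txnrd2, the mitochondrial thioredoxin reductase, is given for its read number rather than its share, and had 99 of 155 and 137 of 198 (63.9% and 69.2%) with a donor 12 bases downstream. In none of these 6 did the share differ between libraries past the adjusted threshold of 0.05 (adjusted p 0.158 to 0.900, Fisher's exact test), which does not show that it was equal.

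**Figure D3:**
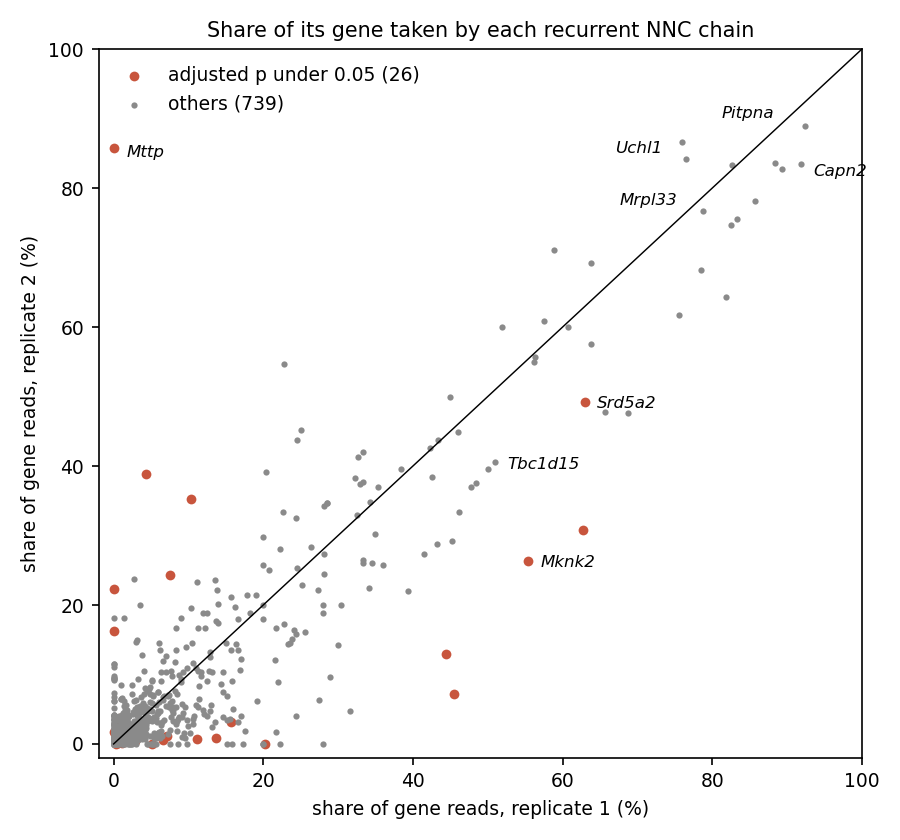
Share of its gene's reads taken by each of 765 recurrent NNC chains in genes with 20 or more reads in each library, replicate 1 on the x axis and replicate 2 on the y axis, in percent, with the line of equal shares. The 26 chains with an adjusted p under 0.05 are marked, most other chains lie near the origin, and Pitpna, Capn2, Uchl1 and Mrpl33 lie high on the line.

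New introns cut out of a single annotated exon numbered 53, from 39 to 3652 bp with a median of 172 bp, and 20 had a length that is a multiple of 3. Of 51 whose ends could be read over 22 bases each, 21 (41.2%, exact binomial 95% interval 27.6 to 55.8) shared a run of 8 or more identical bases between the 2 ends. Among all 169 new introns of the recurrent chains with both windows readable the share was 15.4%. It was 4.41% in NNC chains of 2 to 4 reads, 3.04% in those of 1 read and 2.17% in 22917 annotated introns that lie inside an exon of another transcript. The part of these shared runs in the reads was not tested. The class asks only that both ends are new and that an exon of some transcript spans the intron. It therefore also holds introns with ends near annotated sites, as in H2-Q10 and Cyp11a1.

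Srd5a2, steroid 5-alpha-reductase type 2, which converts testosterone to dihydrotestosterone, held the chain of this kind with the most reads. The intron of 59 bp (chr17:74017151-74017209) lies in the 3′ UTR exon and runs from GT to AG. It had 313 of 497 gene reads in replicate 1 and 272 of 553 in replicate 2, or 63.0% and 49.2%. The share was 13.8 percentage points higher in replicate 1, with an adjusted p of 0.00027 by Fisher's exact test. The windows at its 2 ends shared a run of 6 bases.

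The Mafk intron of 106 bp in the 3′ UTR exon, with 15 of 46 gene reads in replicate 1 and 33 of 80 in replicate 2, had a run of 21 bases in common between the windows shown above. Mafk is a small Maf transcription factor. The Lrrc47 intron of 46 bp, with 48 of 96 and 38 of 96 reads, shared 14 bases. By contrast the Cyp11a1 intron of this kind, which removed 1007 bp between a coding donor 2 bases upstream and an acceptor 106 bases downstream, shared 5 bases and had 22 of 14903 and 32 of 10879 reads.

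New internal exons were in 66 chains of 63 genes. The 73 distinct exons were 39 to 580 bp long with a median of 113 bp, and 31 (42.5%) had a length that is a multiple of 3. The exon with the most reads in both libraries was in Tbc1d15, a GTPase-activating protein for Rab GTPases. It is 51 bp long (chr10:115220688-115220738, minus strand), the seventh exon of its chain, and lies in an annotated intron. The chain had 51 of 100 gene reads in replicate 1 and 47 of 116 in replicate 2, or 51.0% and 40.5%. Kifc3, a minus-end directed kinesin, had a 50 bp exon in 14 of 179 and 11 of 228 reads. Oxtr, the oxytocin receptor, had a new first exon of 218 bp followed by a new internal exon of 150 bp, both upstream of the annotated gene, in 22 of 66 and 9 of 34 reads. Cyp11b1 had a 107 bp exon, number 3 of its chain, in 14 of 8534 and 5 of 4073 reads. The other 4 of the 8 most read lay in genes with 0 to 3 reads in replicate 1. Sult3a1, a sulfotransferase, had 0 and 255 reads on a chain with a 57 bp exon. Serpina1e, an alpha-1 antitrypsin, had 0 of 3 and 36 of 3850, C8a, a complement component, had 0 of 0 and 29 of 472, and Cyp2c68 had 0 of 0 and 18 of 425. These 4 exons were read in replicate 2 alone, where the hepatocyte markers were high, and the part of those markers in the result was not tested.

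New first exons were in 120 chains of 96 genes, as 114 distinct exons of 27 to 1885 bp with a median of 163 bp. Of the 120 chains, 12 began inside a RefSeq promoter window, from 250 bases before to 50 after a gene's start, against 500 of 906 other chains (55.2%). A new first exon by definition overlaps no annotated exon of its strand. The difference thus follows largely from the definition and says nothing on promoter use. Hnrnpf, an RNA-binding protein that regulates splicing, had a new first exon of 121 bp in 53 of 455 and 68 of 697 reads (11.6% and 9.76%). Sult3a1 had the most reads, with 0 and 578 on a chain that begins with a 93 bp exon upstream of the gene. Pik3ca, the catalytic subunit of a phosphoinositide kinase, was the 1 gene whose new first exon took 50% or more of the reads in both libraries, with 33 of 42 and 15 of 22 reads. New last exons were in 34 chains as 33 distinct exons, with a median of 438 bp. Cyp2c70, a P450 of bile acid metabolism, had the most reads, 1 of 1 and 179 of 851. Pnpla3, a lipid droplet protein, had 7 of 68 and 56 of 159 reads on a chain with a last exon of 1811 bp, and its share was 10.3% in replicate 1 and 35.2% in replicate 2 (adjusted p = 0.00208 by Fisher's exact test).

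Recovery in the library that the choice did not use was high in 1 direction. Of the 553 chains chosen in replicate 1, 498 (90.1%, exact binomial 95% interval 87.3 to 92.4) had a read in replicate 2. Of the 707 chosen in replicate 2, 474 (67.0%, 63.4 to 70.5) had a read in replicate 1. For NIC chains chosen the same way the shares were 91.1% and 79.9%, for incomplete matches 93.9% and 65.2%, and for known chains 97.4% and 93.1%. Of chains with 10 to 19 reads in replicate 1, 107 of 109 were read in replicate 2. Of those with 10 to 19 reads in replicate 2, 89 of 126 were read in replicate 1. Across both libraries 738 of 1026 chains (71.9%, 69.1 to 74.7) were read in each, 55 in replicate 1 alone and 233 in replicate 2 alone. Of 232 chains in annotated genes read in replicate 2 alone, 150 (64.7%) lay in genes over 10-fold higher there, and 95 in genes with no read in replicate 1. Of the 55 read in replicate 1 alone, 6 lay in genes over 10-fold higher there. Without the chains of genes that differed over 10-fold between libraries, 857 chains were left, and 84.6% of them were read in both.

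**Figure D4:**
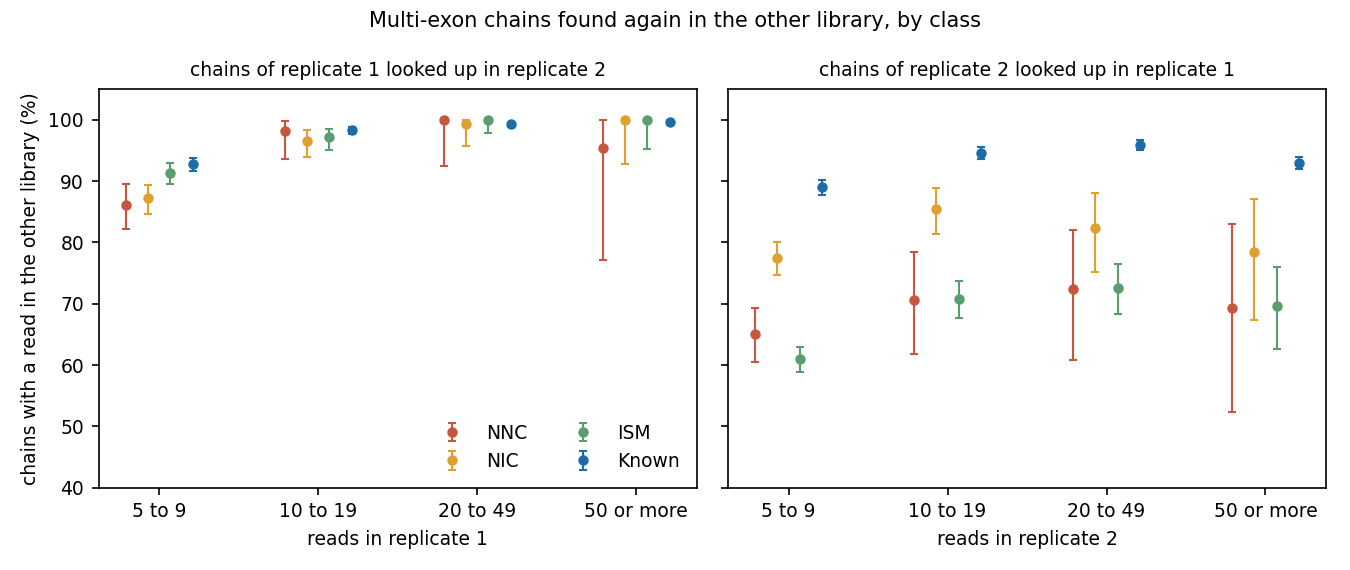
Percent of multi-exon chains with a read in the other library, by class and by reads in the library where they were chosen, with exact binomial 95% intervals. Chains chosen in replicate 1 reached 86.1% at 5 to 9 reads for NNC and over 95% above that, while NNC chains chosen in replicate 2 stayed between 65.0% and 72.4%.

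Fewer chains were called by their share of the gene's reads than by the reads themselves. Of the 28 recurrent NNC chains called by share, 18 were higher and 10 lower in replicate 1, while over all chains 765 (5.64%) were higher and 494 (3.64%) lower. For the chain's reads against all other gene reads of the library, tested the same way, 5417 of 14166 chains (38.2%) were called, 3440 (24.3%) higher and 1977 (14.0%) lower in replicate 1. Of the recurrent NNC chains 198 of 536 (36.9%) were, 102 higher and 96 lower in replicate 1. With TMM scaling the split was 60 higher and 102 lower, and with DESeq2 size factors 54 and 108. Among 465 chains in genes that differed by less than 10-fold, 131 were called, of which 30 were lower in replicate 1.

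The 4 chains higher in share in replicate 1 with the lowest p were in Aldh1l1, Mknk2, Srd5a2 and Apoe. Aldh1l1, a folate enzyme, had 17 of 153 reads in replicate 1 and 8 of 1153 in replicate 2 on a chain with a new first exon, or 11.1% and 0.694% (adjusted p = 3.14e-09). Mknk2, a kinase of the initiation factor eIF4E, had 222 of 401 and 40 of 152 with a donor 42 bases upstream in a 5′ UTR exon, or 55.4% and 26.3% (adjusted p = 5.76e-08). Srd5a2 is given above. Apoe, an apolipoprotein, had 8 of 1252 and 16 of 20461 (adjusted p = 0.00108). In Aldh1l1 and Apoe the gene reads were higher in replicate 2.

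Lower in share in replicate 1 were Mttp, with 0 of 20 reads in replicate 1 and 162 of 189 in replicate 2 (adjusted p = 4.18e-13), and Shmt1, a serine hydroxymethyltransferase, with 0 of 115 and 47 of 290 on a chain with a new first exon of 161 bp (adjusted p = 3.46e-06). Alas1, the first enzyme of heme synthesis, had 7 of 867 and 48 of 1300 on a chain with an acceptor 153 bases upstream in a 5′ UTR exon (adjusted p = 0.000354). These p-values are from the same Fisher's exact tests. For 1 of the 18 chains called higher, in Naa60, the 7 reads of the chain in replicate 2 were assigned to another gene record.

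Genes of steroid synthesis held a chain more often than all genes together, as did other genes with many reads. Of 27 listed genes of steroid synthesis, 23 had 20 reads in each library and 10 of these (43.5%) held 46 chains, all read in both libraries, against 9.88% of all genes at that minimum. The share of genes with a chain ran with read number, at 4.02% of genes with 40 to 99 reads, 7.80% with 100 to 299, 19.2% with 300 to 999 and 50.9% with 1000 or more. The median steroid gene had 775 reads over both libraries, and the median gene 129. The chains took 1.46% and 1.07% of the reads of the list, near the 1.31% and 1.15% of all genes. The list was assembled with earlier results of these data known.

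Cyp11b1, the 11-beta-hydroxylase that makes corticosterone, held 13 chains, which had 248 of 8534 gene reads in replicate 1 and 99 of 4073 in replicate 2. The most read had 109 and 39 reads on a chain that ended intron 8 with an acceptor 21 bases upstream of the annotated one, or 1.28% and 0.958% of the gene. The other 12 had 4 to 26 reads in replicate 1 and 1 to 11 in replicate 2, and 5 of the 13 had a site 4 bases downstream of an annotated one. Cyp21a1, the 21-hydroxylase, held 9 chains with 184 of 9935 and 88 of 5105 reads. Its leading chains had 46 and 19 reads with an acceptor 18 bases upstream, 46 and 18 with one 25 bases downstream, and 34 and 17 with the one 51 bases downstream that is shown above. Cyp11a1, which cleaves the cholesterol side chain as the first step of steroid synthesis, held 8 chains with 132 of 14903 and 96 of 10879 reads. The most read had a donor 4 bases downstream in intron 6, with 34 and 29 reads. Thus in the most expressed cortex genes many different sites each took well under 2% of the reads.

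Nr5a1 encodes SF-1, the transcription factor that controls steroid genes. It had far fewer reads than the 3 genes above, so the minimum of 5 reads itself requires a larger share. The shares of its chains are therefore not compared with theirs. The 4 Nr5a1 chains had 59 of 404 gene reads in replicate 1 and 23 of 338 in replicate 2, or 14.6% and 6.80%. The chain with a donor 152 bases upstream, in the 5′ UTR exon, had 29 and 4 reads, or 7.18% and 1.18% (adjusted p = 0.00129, Fisher's exact test). Another, with a donor 244 bases downstream, had 8 and 13 reads. One more began with a new first exon of 477 bp and had 11 and 2 reads, and the last had a donor 108 bases downstream, with 11 and 4. Star, which brings cholesterol into mitochondria, held 5 chains with 55 of 6524 and 22 of 5082 reads. Its chain with an acceptor 3 bases downstream in intron 3 had 20 and 1 reads, or 0.307% and 0.0197% (adjusted p = 0.00409, Fisher's exact test). Akr1b7, an aldo-keto reductase of the cortex, had 40 of 2577 and 6 of 1310 reads with a donor 14 bases downstream (adjusted p = 0.0315). Hsd3b1 had 2 chains, at 31 and 28 reads and at 16 and 12, and Akr1c18 had 2, at 6 and 1 reads and at 5 and 1. Fdxr and Hsd17b4 had 1 each, at 4 and 5 reads and at 9 and 15.

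**Figure D5:**
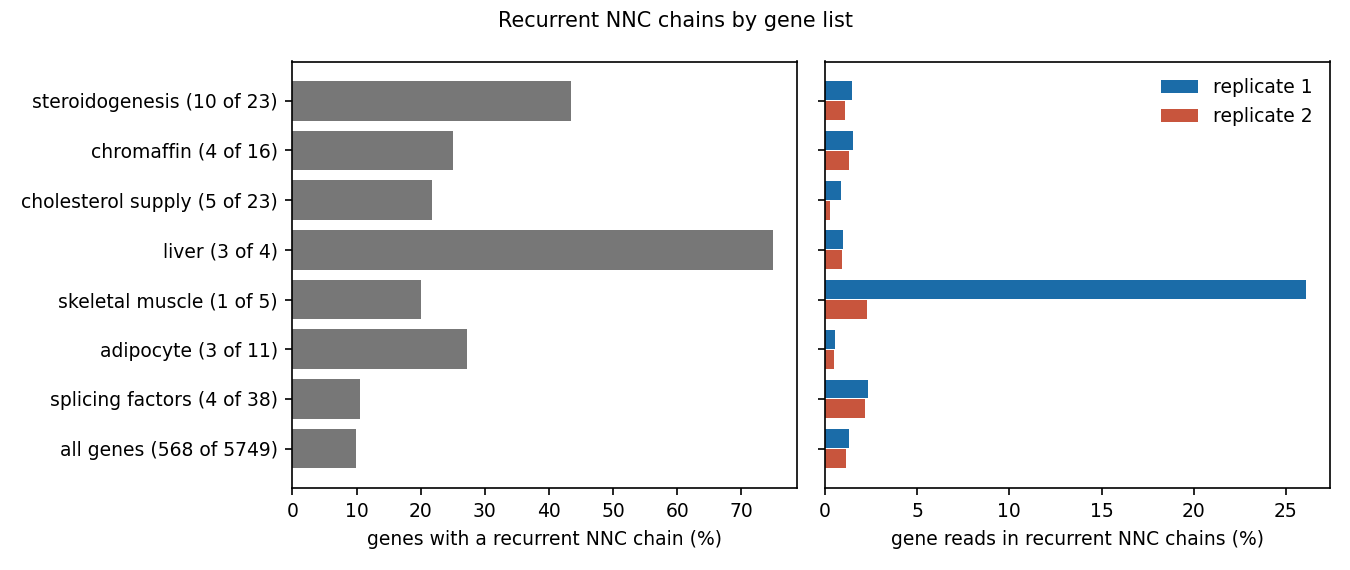
Left, percent of genes with 20 or more reads in each library that hold a recurrent NNC chain, by gene list, with the counts beside each name; right, percent of the list's gene reads that lie in such chains, in replicate 1 and replicate 2. Every list stands above the 9.88% of all genes, from 10.5% for splicing factors to 75.0% for liver (3 of 4 genes), with steroidogenesis at 43.5%. Skeletal muscle reaches 26.1% of reads in replicate 1 through 1 gene.

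Of 34 chromaffin genes, 16 had 20 reads in each library and 4 of these held a chain (25.0%), against 9.88% of all genes at that minimum. The median chromaffin gene had 274.5 reads over both libraries, and the median gene 129. The part of read number in this difference was not tested. With genes under that minimum, 7 genes held 12 chains, 11 of them read in both libraries. Chga, the precursor chromogranin A of the secretory granules, held 4 chains, with 45 of 2161 gene reads in replicate 1 and 34 of 3150 in replicate 2. Of these, 2 had a donor 4 bases downstream, with 16 and 9 reads in intron 7 and with 10 and 12 in intron 5. The other 2 had an acceptor 23 and 35 bases downstream in intron 4, with 9 and 9 reads and with 10 and 4. Chgb, a second granin, had 2 chains, at 8 and 8 reads and at 5 and 6. Cyb561, the electron carrier of the granule membrane, had 26 of 419 and 22 of 459 reads on a chain with a donor 170 bases downstream in intron 1, and 22 and 17 on one with a new first exon of 509 bp. Slc6a2, the noradrenaline transporter, had 5 of 13 and 1 of 12 reads. Ddc, which makes dopamine from DOPA, had 0 of 7 and 6 of 36 on a chain with a new last exon. None of the chromaffin chains that could be tested differed in share between libraries past the threshold, with adjusted p from 0.156 to 1 (Fisher's exact test).

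Most chains in genes of the liver list were read in replicate 2 alone. Of 44 listed liver genes, 28 held 71 chains, with 10 reads in replicate 1 and 1499 in replicate 2, and 5 of the 71 were read in both. Trf, which encodes the iron carrier transferrin, held 13 chains with 3 of 165 gene reads in replicate 1 and 446 of 31858 in replicate 2. The most read were a donor 2 bases upstream with 2 and 110 reads, a donor 4 bases downstream of the same annotated site with 0 and 96, and an acceptor 2 bases downstream with 1 and 76. Of the 13 chains, 6 had a donor 4 bases downstream and 1 had a donor 4 bases upstream, each as its single new site. Alb, serum albumin, held 8 chains with 0 of 2 and 53 of 21951 reads. Itih1, a heavy chain of the inter-alpha-trypsin inhibitors, had 0 and 382 of 569 reads with a donor 31 bases downstream, so that most of the gene's reads lay on an unannotated junction.

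Of 28 listed skeletal muscle genes, 3 held 4 chains, with 1094 reads in replicate 1 and 6 in replicate 2. The leading gene was Atp2a1, the calcium pump of the sarcoplasmic reticulum in fast muscle. The chain of 22 exons (chr7:126445858-126463108, minus strand) with a donor 26 bases downstream in intron 1 had 1078 of 1168 gene reads in replicate 1 and 0 of 0 in replicate 2. It was the recurrent NNC chain with the most reads. With no read of the gene in replicate 2, its share there is not defined. A second Atp2a1 chain had 5 and 0 reads, and a chain of Myh4, a myosin heavy chain of fast muscle, had 9 and 0. Eno3, the muscle enolase, held the 1 chain of the list read in both libraries, with 2 of 139 and 6 of 33 gene reads.

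Genes of splicing factors held 7 chains in 5 genes, and 4 of 38 with 20 reads in each library held one (10.5%), near the 9.88% of all genes. Hnrnpk had 61 of 657 gene reads in replicate 1 and 65 of 627 in replicate 2 (9.28% and 10.4%) on a chain with a donor 16 bases downstream, and 7 and 3 on one with a donor 5 bases downstream. Hnrnpf held 2 chains with new first exons, the second with 16 and 15 reads. Ddx5 had 8 of 1059 and 4 of 1106, Hnrnph3 3 of 43 and 6 of 58, and Tra2b 1 of 16 and 6 of 91. Genes of cholesterol supply held 10 chains, with 55 of 6426 and 72 of 26011 reads. These were 3 in Apoe, 3 in Soat1, 2 in Scarb1, and 1 each in Cyp51 and Hmgcs1. Genes of adipocytes held 5, in Cidea, Fabp4 and Lpl, with 24 and 22 reads, all 5 read in both libraries.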

How the data were processed

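Total RNA of adrenal gland was read by long-read sequencing in 2 libraries of 1 group. Per the file headers, the authors deposited for each library whole-number read counts per transcript model, not normalized, with the model's class and exon coordinates on mm10 against GENCODE M21. The sources used here do not give the aligner, tool versions, strand handling or any merging of PCR copies. Counting error is all that the intervals and limits cover.

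Models were joined by chromosome, strand and intron chain, which ignores differences in transcript ends. A new site is a donor or acceptor absent from GENCODE M21 on that strand, its position is the outermost intron base, and its distance is to the nearest annotated site of that kind in the gene. A new exon overlaps no annotated exon. Bases were read through GENCODE M21 transcript sequences, hence only inside annotated exons. RefSeq promoter windows are those of GRCm38.p6, the same coordinates as mm10. Shares use all reads of the gene. Confidence intervals are exact (Clopper-Pearson, 95%).

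Tests were two-sided Fisher's exact tests on counts (scipy 1.17.1, Python 3.11.15), checked on simulated data. Scaling alternatives used edgeR 4.0.16 (TMM) and DESeq2 1.42.0 size factors. Both replicates share 1 group, so p-values measure the difference of 2 libraries. Chains and gene lists were chosen with earlier results of these data known. Named are the 15 chains with the most reads, the 8 with a new internal exon, 6 with a new first or last exon, 6 with a new intron inside an exon and 8 shifted by 10 bp or less with the most reads of their kind, the 8 with the highest share, 4 with the lowest p in either direction, the 5 genes with the most chains, and all chains in steroid and chromaffin genes. Other genes named in the lists of 50% shares, AT acceptors, slid introns, splicing factors, cholesterol supply, adipocytes and the Naa60 record were chosen after their values were seen. Sequences on chromosome 18 are not printed. Results for 1 gene that this rule names are not reported here.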

Additional observations from a re-analysis of the deposited data

How the results depend on the processing

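No paired analysis was possible because there is 1 group of 2 libraries. The number of chains was 334 with 10 reads required in either library, 2495 with 3, and 234 with 5 NNC reads in each. With 10, 3 and 5 in each, the median distance was 24, 65 and 24 bp, new internal exons numbered 13, 176 and 6, and multiples of 3 were 45.2%, 38.1% and 44.3%. Sites within 10 bp were 38.2% with 10 reads and 37.6% with 5 in each, introns from GT or GC to AG 95.6% and 100%. Chains read in both libraries were 78.1% with 10 reads, 59.8% with 3, 54.3% by NNC reads alone and 75.4% with sites matched within 5 bp. By 1 library at a time, there were 553 to 707 chains, a median of 39 to 45 bp, 29 to 43 chains with a new internal exon, 33.5% to 34.3% of sites within 10 bp, 42.4% to 42.7% multiples of 3 and 96.9% to 98.4% of introns from GT or GC to AG. Counting each chain once by its nearest new site gave 27 bp, 38.7% and 43.0%. Keeping chains whose new introns were readable and began GT or GC and ended AG gave 167 bp, 24.5% and 48.2%, over 189 chains. Weighting by reads gave 31 bp, 32.1%, 34.9% and 94.6% of introns from GT or GC to AG. The nearest site of any gene gave 61 bp and 31.8%, and the nearest of either kind 48 bp and 41.0% multiples of 3.

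Chains called by share numbered 17 with at least 20 reads, 13 with no minimum, 17 at a threshold of 0.01, and 12 against reads of known and recurrent NNC chains alone. Chains called by reads numbered 117 with at least 20 reads and 130 at 0.01. An alternative chosen after seeing the data left out genes over 10-fold different between libraries: 131 chains were called by reads, 42.4% of distances were multiples of 3 and 84.6% of chains were read in both. The cause of these changes was not tested beyond the fewer chains that stricter settings leave. A known chain lay within 5 bp at every site for 281 chains (27.4%), which can be separated from it only by those few bases. At 5 reads, an unread chain in the other library may lie below its depth.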
